A study of Mus musculus with 13 samples.

Results

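Integrins are the transmembrane receptors that hold a cell to the extracellular matrix, and laminins are matrix proteins of the basement membrane that several of them bind. The mRNAs of these proteins were examined in C2C12 cells, an established mouse myoblast line, after small interfering RNA (siRNA) knockdown of YBX3, a nucleic acid binding protein of the Y-box family. The 35 genes were chosen by symbol as integrin alpha chains, integrin beta chains and laminin alpha, beta and gamma chains, and all 35 were found by Ensembl identifier among the 55642 genes of the deposited table. Enough counts for a test were present for 29 of the 35, against 16848 of all genes.

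Cells were transfected with nontargeting siRNAs (control KD) or with siRNAs to YBX3 (YBX3 KD), and all were harvested 48 h after transfection. Proliferating myoblasts (0 day) were kept in medium with fetal bovine serum and gave 4 libraries per siRNA pool, lettered A to D. Differentiating myoblasts (1 day) were moved 24 h after transfection to medium with 10% horse serum and gave 2 control KD libraries (C and D) and 3 YBX3 KD libraries (B, C and D). All groups share the cell line and the transfection step. Each library was made from total RNA with a stranded mRNA kit.

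Library totals ran from 33451547 to 71811371 counts. Levels are given as CPM (counts of a gene as a share of its library, scaled to 1000000), with library sizes adjusted by the TMM factors of edgeR, which were between 0.969 and 1.02. The targeted mRNA, Ybx3, had a mean of 311 CPM (SD 29.2, 6 libraries) with control siRNAs and of 44.99 CPM (SD 13.2, 7 libraries) with YBX3 siRNAs, or 14.5% of control. Myoblast markers summed to between 597 and 725 CPM in control KD and between 665 and 876 CPM in YBX3 KD, and 1 of the 7 that were tested, Chrna1, the acetylcholine receptor alpha chain, rose (log2 fold change 0.37, adjusted p = 0.0449). Markers of leukocytes (1.96 to 4.46 CPM summed) and endothelium (0.776 to 1.74 CPM) were low in every library, with Adgre1, Tyrobp, Emcn and Cldn5 at 0 throughout. Markers of epithelium (5.83 to 33.7 CPM) and platelets (1.41 to 13.8 CPM) were also low, with Epcam and Gp6 at 0. Most of the epithelial sum was Krt14, at 18.2 to 29.8 CPM in the libraries of replicate D and 4.43 to 9.36 CPM in all others. The platelet sum was nearly all Ppbp. Among these lists, 1 further gene passed an adjusted p of 0.05, the endothelial receptor Tek, from 0.0715 to 0.237 CPM. Markers of differentiating myocytes summed in control KD to between 15.2 and 72.8 CPM at 0 day and between 18.7 and 39.1 CPM at 1 day. In YBX3 KD they summed to between 34.6 and 76.4 CPM at 0 day and between 24.6 and 147 CPM at 1 day. From 0 day to 1 day in control KD, 2 of the 11 tested had a positive log2 change (median -0.64). That step set C and D at 1 day against A to D at 0 day, without pairing by letter. Within the same letter in control KD, Myh1 went from 11.96 to 12.4 CPM in C and from 0.586 to 1.31 CPM in D. Acta1 went from 5.14 to 4.69 CPM in C and from 0.617 to 0.549 CPM in D. For YBX3 KD against control KD over both time points 10 of 11 had a positive log2 change (median 0.65). None passed an adjusted p of 0.05. Replicate D stood apart from A to C for many members, and its values are given separately. In RNA from whole cultures, fewer cells of a type and less RNA per cell cannot be told apart.

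An integrin is a pair of an alpha and a beta chain, and the pairing sets the ligand. Chains that pair with β1 form the largest class. Of these, α5β1 is the classical fibronectin receptor, α3β1, α6β1 and α7β1 bind laminins, and α7β1 is the form best known from skeletal muscle. The αv chain pairs with several beta chains and binds RGD-containing ligands such as fibronectin and vitronectin. A laminin is a trimer of an alpha, a beta and a gamma chain, and the trimer that holds the laminin α2 chain is the main laminin around muscle fibers. Loss of that chain causes a congenital muscular dystrophy.

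The YBX3 siRNAs were a pool of 4 duplexes, and their antisense strands are shown because each carries a seed (bases 2 to 8, in capitals) that can pair with other mRNAs.
YBX3 siRNA 05, antisense strand: uAUAGUUGuagggacgucg
YBX3 siRNA 06, antisense strand: aUAGUAGCcgcgucuguac
YBX3 siRNA 07, antisense strand: uCCAUAUCcauuucugacg
YBX3 siRNA 08, antisense strand: aUACUUGCguggguuguuu
For siRNA 07 the sense strand as listed is not the reverse complement of the antisense strand.

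The order of the members was set by CPM per kilobase of merged exon length, since longer mRNAs give more counts. By this length Itgb1, the β1 chain that most of the alpha chains share, was highest at 164.5 ± 21.2 CPM per kilobase (SD over 13 libraries). Itga5, its fibronectin-binding partner, followed at 92.1 ± 8.31, and Itga7, its laminin-binding partner in muscle, at 50.6 ± 10.2. By merged exon length the lowest library for Itgb1 was above the highest for Itga5, and the lowest for Itga5 above the highest for Itga7. Lamb2 (32.8 ± 5.89), Lamb1 (27.9 ± 1.56), Lamc1 (27.1 ± 1.68), Itga3 (26.9 ± 6.62), Itgb5 (24.6 ± 6.02), Itgav (23.4 ± 2.44) and Itgb3 (23.1 ± 7.46) came next in CPM per kilobase, and each differed from its neighbor by less than the larger of their SDs. Below them were Itgb7 (18.3 ± 12.1), Lama5 (16.8 ± 4.92), Lamb3 (8.56 ± 3.78), Itga6 (4.99 ± 0.748) and Lama2 (4.71 ± 0.967). The other tested members were at 2.38 CPM per kilobase or less. Dividing by the length of the Ensembl canonical transcript in place of merged exons left 7 of the highest 8 members among the highest 8, with Itgb5 at rank 4 and Lamb2 at rank 8. By canonical length Itga5 and Itga7 were close, at means of 111.9 and 102.4 CPM per kilobase, so their separation depends on the length used. The canonical order was chosen after seeing the data. With the median length of coding transcripts, which is 409 bases for Lamb2, Lamb2 was highest at 488.9 CPM per kilobase, Itgb1 came next at 197.4, and Itga7 was at rank 5.

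**Figure D1:**
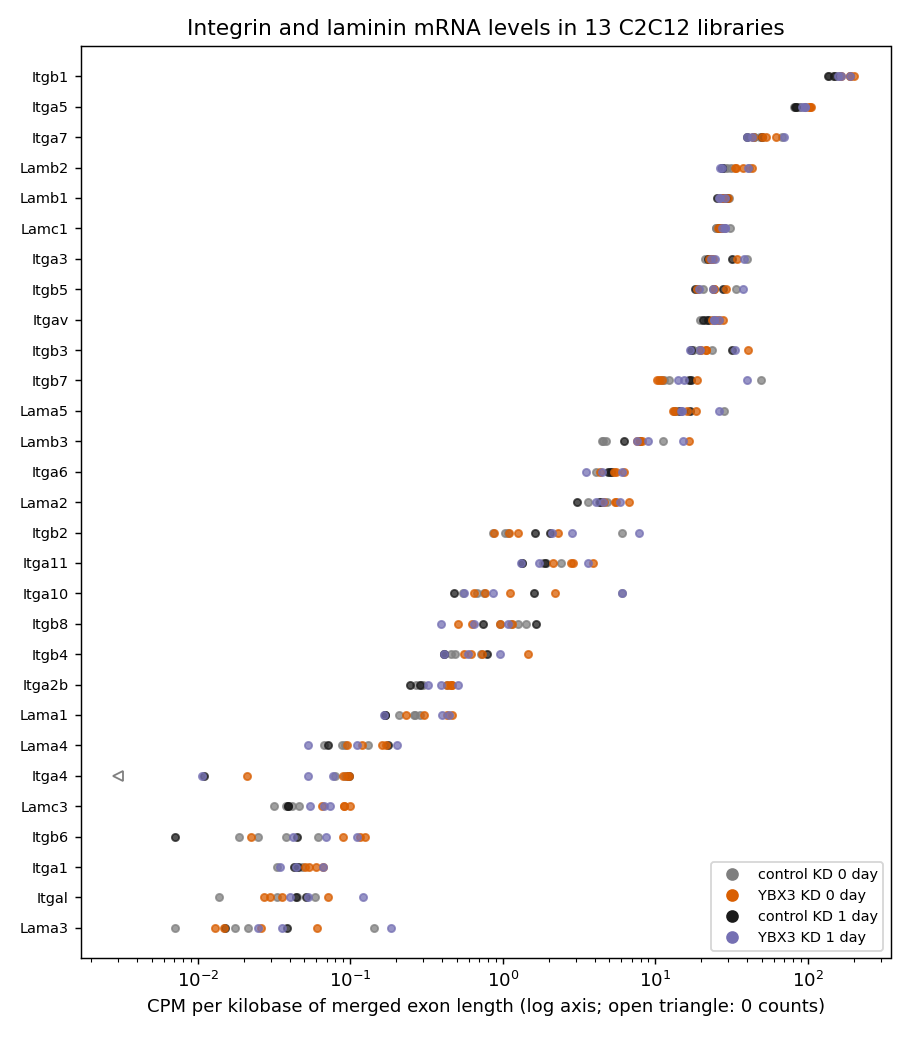
Levels of the 29 tested integrin and laminin mRNAs in CPM per kilobase of merged exon length (log axis), with a point for each of 13 libraries colored by group. Itgb1, Itga5 and Itga7 are highest on average and do not overlap one another, but the lowest library of Itga7 (39.7) is below the highest of Lamb2 (42.95). Below them, 7 members lie between 23.1 and 32.8 CPM per kilobase on average, and the only library at 0 counts is for Itga4 (open triangle).

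Among the alpha chains that can pair with β1, Itga5 made up 44.8% ± 4.72 (SD, n = 6) of the summed CPM per kilobase in control KD and 46.7% ± 3.63 (SD, n = 7) in YBX3 KD. Itga7 made up 25.7% ± 2.64 and 24.1% ± 2.77, Itga3 13.8% ± 2.60 and 12.7% ± 1.79, and Itgav 11.2% ± 0.693 and 11.98% ± 0.654. Together these alpha chains were at 1.299 ± 0.189 times the level of Itgb1 per kilobase in control KD and 1.20 ± 0.212 times in YBX3 KD. Of the laminin alpha chains, Lama5, the chain of laminins found in most basement membranes, made up 77.9% ± 6.04 in control KD and 73.5% ± 6.11 in YBX3 KD, and Lama2 20.3% ± 5.83 and 24.1% ± 6.003. Of the laminin beta chains, Lamb2 made up 46.8% ± 3.27 in control KD and 47.4% ± 3.05 in YBX3 KD, Lamb1 43.4% ± 4.65 and 38.7% ± 5.36, and Lamb3 9.76% ± 2.89 and 13.9% ± 3.64. These shares depend on the lengths used. With canonical transcript lengths the Itga5 share in control KD was 36.3% and the Itga7 share was close to it at 34.6%. The Lama5 share was 66.3%, and the order of the laminin beta chains turned, with Lamb1 at 55.2% and Lamb2 at 34.9%.

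The 6 members without enough counts were Itgae (2 to 9 counts per library), Itgax (0 to 5), Itga2 (0 to 8), Itgam (0 to 4), Itga8 (0 to 2) and Itga9 (0 to 1). Itgae, Itgax and Itgam encode alpha chains of leukocyte integrins, and Itga2, Itga8 and Itga9 alpha chains that pair with β1.

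The first comparison set all YBX3 KD libraries against all control KD libraries and fitted the day alongside, since the study combined the days. The study used DESeq2 with independent hypothesis weighting. It called a gene when it changed by more than 1.3-fold and its adjusted p-value was below 0.001. Here those thresholds were set on edgeR's quasi-likelihood test, which called 0 of the 29 tested members, against 0.113% of all tested genes. DESeq2 at the same thresholds, without that weighting, called 1 member, Lamc3, and 1.12% of all genes. Without a fold threshold and at an adjusted p of 0.05, edgeR's quasi-likelihood test called 4 of 29, all higher in YBX3 KD, against 2.34% of all genes. They were Itgb1, Itga5, Itgav and Lamc3. Leaving out a library at a time left 1 to 5 members called. Lamc3 passed in all 13 of these fits, Itga5 in 7, Itgav in 5 and Itgb1 in 3, and Lamc3 alone passed without control KD B or C at 0 day, control KD C or D at 1 day, or YBX3 KD A or B at 0 day. Without control KD A at 0 day 2 passed, and without a filter on low counts 0. The share of all genes called ran from 1.03% to 5.11% in the fits that left out a library, the highest without control KD D at 0 day, where 5 members passed, and was 0.594% without the filter. DESeq2 at an adjusted p of 0.05 called 5 members and 7% of all genes. Unadjusted p-values were under 0.05 for 11 of the 29 members and for 2636 of all 16848 genes. The median log2 fold change of the members was 0.23, with 23 above 0 and 6 below, beside 0.0008 over all tested genes, of which 50.1% were above 0.

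**Figure D2:**
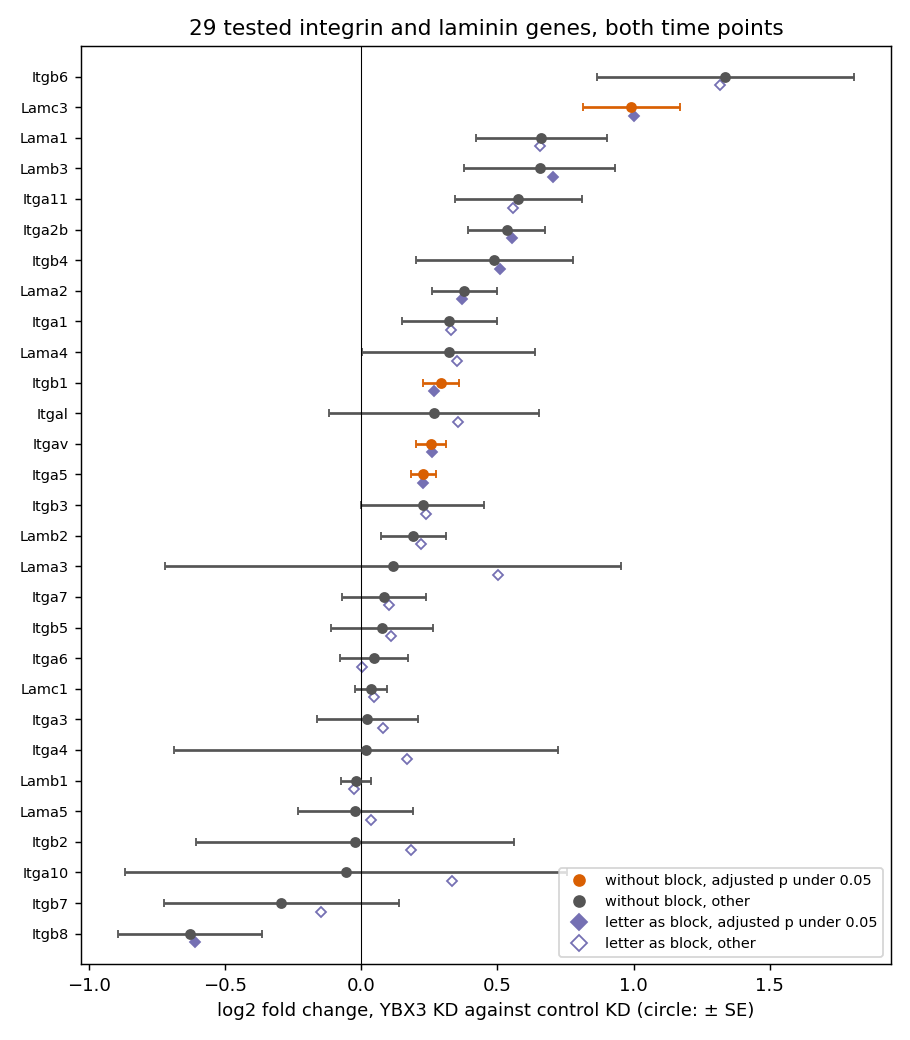
Log2 fold changes of the 29 tested members in YBX3 KD against control KD over both time points, from edgeR without (circles, ± SE) and with the replicate letter as a block (diamonds), colored or filled where the adjusted p-value was under 0.05. The 4 circles that pass are all to the right of 0, and Itgb8 is the only filled diamond to the left.

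Itgb1 (ENSMUSG00000025809, GRCm39 chromosome 8, 129411876 to 129460618, plus strand) was at 909, 966, 891 and 824 CPM in control KD A to D and at 1130.2, 1193, 1126 and 983 CPM in YBX3 KD A to D at 0 day. At 1 day it was at 884 and 805 CPM in control KD C and D and at 1135, 982 and 940.1 CPM in YBX3 KD B, C and D. The level was higher in YBX3 KD in all 6 pairs of the same letter and day, although the lowest YBX3 KD library, D at 1 day, was below the highest control, B at 0 day. The log2 fold change was 0.29 (SE 0.07, adjusted p = 0.0394), with means of 879.7 CPM (SD 58.5) in the 6 control libraries and 1070.0 CPM (SD 98.6) in the 7 YBX3 KD libraries.

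Itga5 (ENSMUSG00000000555, chromosome 15, 103252713 to 103275270, minus strand) was at 475, 451, 465 and 429 CPM in control KD A to D and at 549.8, 539.9, 511 and 562 CPM in YBX3 KD A to D at 0 day. The 1 day values were 439 and 442 CPM in control KD and 511, 488 and 511 CPM in YBX3 KD. Every YBX3 KD library was above every control library. The log2 fold change was 0.23 (SE 0.05, adjusted p = 0.0225), the smallest of the 4.

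Itgav (ENSMUSG00000027087, chromosome 2, 83554403 to 83637260, plus strand) was at 265, 265, 242 and 275 CPM in control KD A to D and at 324, 306, 291 and 342 CPM in YBX3 KD A to D at 0 day. After 1 day, levels were 253 and 272 CPM in control KD and 301, 299 and 322 CPM in YBX3 KD. The groups did not overlap. The log2 fold change was 0.26 (SE 0.05, adjusted p = 0.0296).

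Lamc3 (ENSMUSG00000026840, chromosome 2, 31777258 to 31839117, plus strand) encodes laminin γ3, a rare alternative to the γ1 chain. It was at 0.388, 0.296, 0.356 and 0.432 CPM in control KD A to D and at 0.614, 0.849, 0.848 and 0.940 CPM in YBX3 KD A to D at 0 day. In differentiating myoblasts it was at 0.369 and 0.366 CPM in control KD and at 0.635, 0.510 and 0.691 CPM in YBX3 KD. All YBX3 KD libraries were above all controls. Its log2 fold change of 0.99 (SE 0.18, adjusted p = 0.0131) was the largest of the 4, on 13 to 61 counts per library, while Lamc1, the chain it can replace, was at more than 280 CPM.

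No overlap between the 7 YBX3 KD and the 6 control KD libraries was seen for Itga5, Itgav and Lamc3, or 3 of 29 members, against 0.95% of all genes with every YBX3 KD library above. In the 6 pairs of the same letter and day, 10 of 29 members were higher in YBX3 KD in all 6, against 9.35% of all genes. They were the 4 above and Lamb2, Lamb3, Lama2, Itgb3, Itgb4 and Itga2b. A single member, Itgb8, was lower in all 6 pairs, against 7.97% of all genes.

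**Figure D3:**
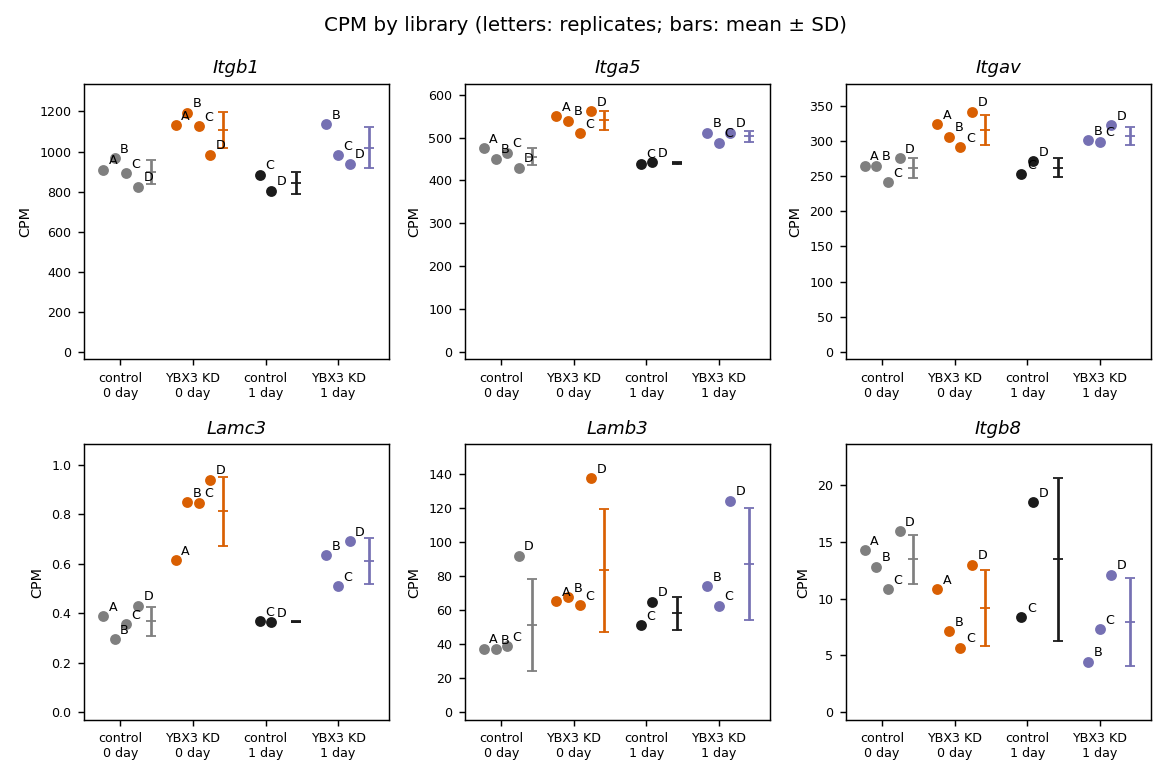
CPM of 6 members by library, with the replicate letter beside each point and the mean ± SD of each group to its right, on axes that include 0. Itga5, Itgav and Lamc3 show no overlap between YBX3 KD and control KD, whereas for Lamb3 and Itgb8 replicate D is the highest library of its group at 0 day and the groups overlap.

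Libraries of the same letter deviated together, so the letter was also used as a block. In edgeR with this block, 9 of 29 members passed an adjusted p of 0.05 over both time points, against 9.78% of all genes, and 8 of the 9 were higher in YBX3 KD. They were the same 4 (adjusted p between 0.00528 and 0.0136) and Itga2b, Itgb4, Lama2, Lamb3 and Itgb8. Without the 4 libraries of replicate D, 8 of 29 passed, all higher, against 12.5% of all genes, namely the same 4 with Itga2b, Itgb6, Lama2 and Lamb3. At the thresholds of the study, 0 members were called in both fits. Each of these percentages is of calls in both directions.

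Lamb3 encodes laminin β3, a chain of the laminin that anchors epithelia. It was at 37.5, 37.0, 38.9 and 92.0 CPM in control KD A to D and at 65.3, 67.7, 62.8 and 137 CPM in YBX3 KD A to D at 0 day. Its 1 day levels were 51.2 and 65.0 CPM in control KD C and D and 74.0, 62.7 and 124 CPM in YBX3 KD B, C and D. Within each letter and day the YBX3 KD library was the higher, but control D was above YBX3 KD A, B and C at 0 day. The log2 fold change was 0.65 (SE 0.28, adjusted p = 0.27), and 0.70 with the block (adjusted p = 0.00609).

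Lama2, the laminin α2 chain of muscle, was at 85.9, 79.8, 75.9 and 64.5 CPM in control KD A to D and at 119, 98.0, 97.3 and 82.2 CPM in YBX3 KD A to D at 0 day. At 1 day it was at 77.5 and 54.3 CPM in control KD and at 81.2, 105 and 72.5 CPM in YBX3 KD. Replicate D was the lowest of each group. The log2 fold change was 0.38 (SE 0.12, adjusted p = 0.132), and 0.37 with the block (adjusted p = 0.00792).

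Itgb8, the β8 chain that pairs with αv and binds latent TGF-β, was the member with the largest negative log2 fold change, -0.63 (SE 0.26, adjusted p = 0.262), and -0.61 with the block (adjusted p = 0.0274). It was at 14.2, 12.8, 10.8 and 15.9 CPM in control KD A to D and at 10.8, 7.12, 5.69 and 12.97 CPM in YBX3 KD A to D at 0 day. The 1 day values were 8.38 and 18.5 CPM in control KD and 4.45, 7.33 and 12.1 CPM in YBX3 KD. The groups overlapped, and replicate D was the highest of each.

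Matches to the 4 YBX3 siRNA seeds were looked for in the 3' untranslated region of the canonical transcript of each tested gene, on the mRNA strand. At least 1 match was found in 8 of 29 members (27.6%) and in 20.4% of 12860 tested genes with such a region. Itgb1 held a match to each of 05, 06 and 07, and Itgb8 to 05 and 08, the 08 match starting at base 60 of the region. These sites are shown because they lie in the member with the highest level, which was higher in YBX3 KD, and in the member that was lower in all 6 pairs. The capitals mark the heptamer complementary to the seed, and positions are of GRCm39.
Itgb8 match to siRNA 08, chr12:119126776-119126802, minus strand: atttattctaGCAAGTAtaatataaag
Itgb8 match to siRNA 05, chr12:119124263-119124289, minus strand: actacataagCAACTATatacaagtta
Itgb1 match to siRNA 05, chr8:129460148-129460174, plus strand: tgtgtggaaaCAACTATatggattctg
Itgb1 match to siRNA 06, chr8:129459863-129459889, plus strand: atcattttagGCTACTAgatgctggag
Itgb1 match to siRNA 07, chr8:129459724-129459750, plus strand: atgtgttaaaGATATGGtagagaaacg
Seed 08, by its heptamer GCAAGTA, matched 1 other tested member, Itgal, whose log2 fold change was 0.27. Seed 05 also matched Itga1 (0.32), seed 06 Itga3 (0.02), Itga4 (0.02) and Itgal, and seed 07 Itga4, Itga7 (0.08) and Itgb6 (1.34), again as log2 fold changes. Over all genes, the median log2 fold change was -0.06 for the 882 with a match to seed 08 and 0.0009 for those without. For seed 05, which Itgb8 also matches, it was 0.013 with a match and -0.0048 without, for seed 06 -0.0261 and -0.0016, and for seed 07 0.0085 and -0.0044. The nontargeting siRNAs have seeds as well, and 2 of their 4 matched the region of Itgb1 and of Itgb8. A match of letters is a description and not a site of action, and its part in the level of Itgb8 was not tested.

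The alpha chains that bind laminin did not pass an adjusted p of 0.05. Itga7 was at 368, 402, 369 and 564 CPM in control KD A to D and at 443, 415, 360.2 and 516 CPM in YBX3 KD A to D at 0 day. After 1 day, levels were 332 and 416 CPM in control KD and 329, 356 and 582 CPM in YBX3 KD. Replicate D was the highest of each group, and the log2 fold change was 0.08 (SE 0.15, adjusted p = 0.841). Itga3 was at 129, 123, 132 and 231 CPM in control KD A to D and at 140.1, 131, 136 and 200.04 CPM in YBX3 KD A to D at 0 day. In differentiating myoblasts it was at 129 and 184 CPM in control KD and at 135, 142 and 222 CPM with YBX3 siRNAs, and the log2 fold change over both days was 0.02 (SE 0.19). Itga6, which pairs with β1 or β4, was the lowest of these chains. It was at 59.4, 58.3, 57.4 and 46.8 CPM in control KD A to D and at 60.9, 62.6, 70.5 and 49.0 CPM in YBX3 KD A to D at 0 day. Its 1 day levels were 55.5 and 58.3 CPM in control KD and 68.8, 50.9 and 40.1 CPM with YBX3 siRNAs, and the log2 fold change over both days was 0.05 (SE 0.12).

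The beta chains other than β1 that pair with αv were led by Itgb5 and Itgb3. Itgb5 was at 135, 169, 145 and 238 CPM in control KD A to D and at 172, 170.2, 132 and 204 CPM in YBX3 KD A to D at 0 day. At 1 day it was at 128 and 196 CPM in control KD and at 136, 168 and 266 CPM with YBX3 siRNAs, and the log2 fold change over both days was 0.07 (SE 0.19). Itgb3 is also the partner of the platelet chain αIIb. It was at 118, 128, 115 and 155 CPM in control KD A to D and at 143, 143, 131 and 269 CPM in YBX3 KD A to D at 0 day. The 1 day values were 113 and 211 CPM in control KD and 111, 129 and 221 CPM with YBX3 siRNAs, and the log2 fold change over both days was 0.23 (SE 0.23). In both genes replicate D was the highest of every group. Itgb6, an epithelial partner of αv, had the largest log2 fold change of the members, 1.34 (SE 0.47, adjusted p = 0.173), on 2 to 47 counts per library, between 0.0523 and 0.453 CPM (median 0.230) in control KD and between 0.164 and 0.911 CPM (median 0.654) in YBX3 KD.

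Itga2b, which encodes αIIb, was at 2.46, 2.39, 2.199 and 3.55 CPM in control KD A to D and at 3.52, 3.77, 3.75 and 3.81 CPM in YBX3 KD A to D at 0 day. After 1 day, levels were 2.02 and 2.35 CPM in control KD and 3.21, 2.66 and 4.15 CPM in YBX3 KD. The groups overlapped through control D at 0 day, and the log2 fold change was 0.53 (SE 0.14, adjusted p = 0.074), or 0.55 with the block (adjusted p = 0.0166). Itgb4, the partner of α6 in hemidesmosomes, was at 2.99, 3.51, 3.28 and 5.15 CPM in control KD A to D and at 5.30, 4.44, 4.02 and 10.6 CPM in YBX3 KD A to D at 0 day. In differentiating myoblasts it was at 2.97 and 5.67 CPM in control KD and at 2.97, 4.24 and 6.93 CPM in YBX3 KD. Its log2 fold change was 0.49 (SE 0.29, adjusted p = 0.456), or 0.51 with the block (adjusted p = 0.0396). Itga11 and Itga1, both collagen-binding partners of β1, had log2 fold changes of 0.58 (SE 0.23, adjusted p = 0.242) and 0.32 (SE 0.18, adjusted p = 0.41). Itga11 ranged from 8.20 to 14.8 CPM in control KD and from 8.07 to 24.2 CPM in YBX3 KD, and Itga1 from 0.710 to 1.02 CPM and from 0.741 to 1.42 CPM. Itga1 holds the gene Pelo on the same strand, so that reads could be shared between the pair.

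Of the abundant laminin chains, Lamb1, Lamc1, Lamb2 and Lama5 had log2 fold changes between -0.02 and 0.19. Lamb1, the β1 laminin chain, was at 303, 326, 294 and 299 CPM in control KD A to D and at 322, 304, 299 and 283 CPM in YBX3 KD A to D at 0 day. Its 1 day levels were 273 and 319 CPM in control KD and 284, 309 and 279.8 CPM with YBX3 siRNAs, and the log2 fold change over both days was -0.02 (SE 0.06, adjusted p = 0.899). Lamc1, the γ1 chain of most laminins, was at 297, 281, 285 and 351 CPM in control KD A to D and at 318, 289.8, 302 and 306 CPM in YBX3 KD A to D at 0 day. At 1 day it was at 305 and 295 CPM in control KD and at 322, 310.3 and 327 CPM with YBX3 siRNAs, and the log2 fold change over both days was 0.04 (SE 0.06, adjusted p = 0.814). Both had small spreads, with SDs of 25.2 CPM or less in either condition. Lamb2, the laminin β2 chain found at the neuromuscular junction, was at 179, 172, 189.8 and 251 CPM in control KD A to D and at 228, 205, 202 and 262 CPM in YBX3 KD A to D at 0 day. The 1 day values were 166 and 167 CPM in control KD and 163, 168 and 247 CPM in YBX3 KD. Its log2 fold change was 0.19 (SE 0.12, adjusted p = 0.489), and it was higher in YBX3 KD in all 6 pairs of the same letter and day. Lama5 had a log2 fold change of -0.02 (SE 0.21), with control KD from 153 to 324 CPM (median 165) and YBX3 KD from 150.1 to 299 CPM (median 172).

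Apart from Lama2, whose levels are given above, the other laminin alpha chains were scarce. Lama1, the chain of the early embryonic basement membrane, was at 2.53, 2.80, 2.59 and 2.04 CPM in control KD A to D and at 4.49, 2.96, 2.25 and 4.16 CPM in YBX3 KD A to D at 0 day. After 1 day, levels were 1.65 CPM in both control KD libraries and 1.62, 4.32 and 3.89 CPM with YBX3 siRNAs, and the log2 fold change over both days was 0.66 (SE 0.24, adjusted p = 0.19). Lama4, a chain known from vessels, was at 1.46, 2.05, 1.05 and 1.39 CPM in control KD A to D and at 2.54, 1.86, 1.496 and 2.70 CPM in YBX3 KD A to D at 0 day. In differentiating myoblasts it was at 1.12 and 2.77 CPM in control KD and at 0.830, 3.17 and 1.74 CPM with YBX3 siRNAs, and the log2 fold change over both days was 0.32 (SE 0.32). Both genes overlapped between the conditions.

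The same comparison was made within each time point. In proliferating myoblasts, 0 of 29 members were called at the thresholds of the study, against 0.0297% of all genes, and 0 at an adjusted p of 0.05, against 0.427%. The smallest adjusted p was that of Lamc3 (log2 fold change 1.14, SE 0.22, adjusted p = 0.0572), followed by Itga5 (0.25, SE 0.06, 0.117) and Itgav (0.27, SE 0.07, 0.144). Among members with a negative log2 fold change at 0 day, Itgb8 (-0.56, SE 0.35), Itgb7 (-0.72, SE 0.51) and Itgb2 (-0.70, SE 0.65) had the smallest p-values. Unadjusted, 6 members and 1861 genes were under 0.05. With DESeq2 at an adjusted p of 0.05, Itga5, Itgav and Lamc3 passed, 3 of 29, against 3% of all genes. With the letter as a block in edgeR, Itga5, Itgav, Itgb1, Lama2, Lamb3 and Lamc3 passed, 6 of 29 and all higher in YBX3 KD, against 2.37% of all genes. Without replicate D, Itga2b, Itgb1 and Lamb3 passed, against 5.49%.

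In differentiating myoblasts, 0 of 29 members were called at either threshold, against 0% at the thresholds of the study and 0.0712% at an adjusted p of 0.05 over all genes. Unadjusted, 6 members and 1312 genes were under 0.05, and DESeq2 at an adjusted p of 0.05 called 0 members, against 0.902% of all genes. The smallest p-values among members with a positive log2 fold change were those of Itga2b (0.61, SE 0.24), Lamc3 (0.73, SE 0.29) and Itga5 (0.19, SE 0.08), with adjusted p-values of 0.59 to 0.595. Among those with a negative one they were Itgb8 (-0.75, SE 0.44), Itga6 (-0.09, SE 0.21) and Lamb1 (-0.03, SE 0.09). Only 2 control KD libraries were made at this time point, so the spread was shared across all groups.

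The difference of the YBX3 KD effect between the time points was tested directly. It passed an adjusted p of 0.05 for 0 of 29 members, against 0% of all genes, and 0 members and 444 genes in all were under an unadjusted 0.05. DESeq2 called 0 members and 2 genes. Among members with a higher log2 fold change at 1 day, the smallest p-values were those of Itgb2 (1.91, SE 1.08), Lama3 (2.32, SE 1.58) and Itgb7 (1.18, SE 0.84), genes with high values in replicate D. In the other direction they were those of Lamc3 (-0.41, SE 0.36), Itgb3 (-0.49, SE 0.47) and Itgb4 (-0.58, SE 0.60).

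**Figure D4:**
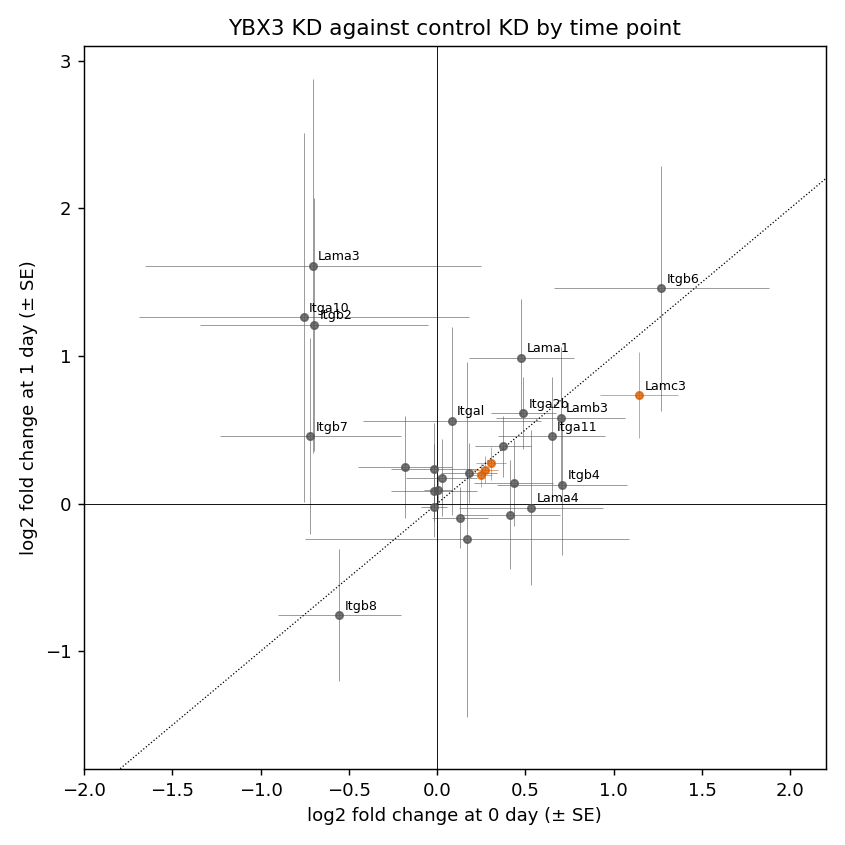
Log2 fold change of each tested member in YBX3 KD against control KD at 0 day (horizontal) and at 1 day (vertical), with bars of ± SE, a dotted line of equal values, and the 4 members that passed over both time points in orange. Itgb8 is the only named point in the lower left, and Lama3, Itga10, Itgb2 and Itgb7 lie at the upper left with SEs of 0.51 or more.

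The step from 0 day to 1 day passed an adjusted p of 0.05 for 0 of 29 members in control KD, against 0% of all genes, and for 0 of 29 in YBX3 KD, against 0%. Unadjusted p-values were under 0.05 for 0 members and 242 genes in control KD and for 1 member and 721 genes in YBX3 KD. DESeq2 called 0 members in either, and 6 and 4 genes. The median log2 change of the members was -0.09 in control KD and -0.10 in YBX3 KD, beside -0.0034 and -0.0041 over all tested genes. In control KD the smallest p-values were those of Itgb3 (0.33, SE 0.35), Lama4 (0.38, SE 0.50) and Itgal (0.32, SE 0.61) among positive changes, and of Lama1 (-0.60, SE 0.38), Lamb2 (-0.25, SE 0.19) and Itga2b (-0.28, SE 0.23) among negative ones. In YBX3 KD they were those of Itgb2 (1.62, SE 0.69), Itgb7 (0.86, SE 0.55) and Lama3 (1.53, SE 0.99), and of Lamc3 (-0.41, SE 0.23), Itga5 (-0.10, SE 0.06) and Lamb2 (-0.22, SE 0.17). Itgal, the alpha chain of a leukocyte integrin, was at 0.0911 to 0.388 CPM in the 6 control KD libraries (median 0.294) and at 0.179 to 0.793 CPM in the 7 YBX3 KD libraries (median 0.265).

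Replicate D lay outside the range of A to C for most members at 0 day. In control KD it was above all 3 for 17 and below all 3 for 8 of the 29 tested members, against 39.8% and 38.3% of all tested genes. In YBX3 KD it was above for 19 and below for 7, against 37.5% and 33.6%, so that replicate D stood apart over the whole table. The leukocyte chain Itgb7 was at 33.3, 31.8, 35.4 and 142 CPM in control KD A to D and at 29.8, 32.3, 30.7 and 54.5 CPM in YBX3 KD A to D at 0 day. Its 1 day levels were 48.0 and 49.6 CPM in control KD C and D and 44.6, 41.1 and 115 CPM in YBX3 KD B, C and D. Itgb2, the shared beta chain of leukocyte integrins, showed a like pattern at lower levels. It was at 2.81, 3.37, 3.51 and 19.6 CPM in control KD A to D and at 4.09, 3.58, 2.86 and 7.42 CPM in YBX3 KD A to D at 0 day. At 1 day it was at 6.58 and 5.28 CPM in control KD and at 6.87, 9.18 and 25.2 CPM in YBX3 KD. For both genes control D at 0 day and YBX3 KD D at 1 day were the highest libraries, while control D at 1 day was close to C. The alpha partners of β2 were low in every library, Itgal at 0.793 CPM or less and Itgam and Itgax at 5 counts or fewer. Leukocyte markers, at 4.46 CPM or less in sum, are given above, and their part in these values was not tested.

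Itga10, a collagen-binding alpha chain known from cartilage, was at 3.49, 3.89, 2.86 and 31.4 CPM in control KD A to D and at 5.76, 3.96, 3.35 and 11.5 CPM in YBX3 KD A to D at 0 day. The 1 day values were 2.48 and 8.31 CPM in control KD and 2.89, 4.46 and 31.4 CPM in YBX3 KD. It overlaps the gene model Gm42957 on the same strand, so that reads could be split. Lama3, whose product is the partner of laminin β3, was at 0.274, 0.0911, 0.226 and 1.85 CPM in control KD A to D and at 0.191, 0.167, 0.335 and 0.775 CPM in YBX3 KD A to D at 0 day. After 1 day, levels were 0.194 and 0.496 CPM in control KD and 0.318, 0.456 and 2.38 CPM in YBX3 KD. D was the highest library of each group for both genes.

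Itga4, the α4 chain that binds fibronectin and VCAM1, went the other way. It was at 1.60, 1.32 and 1.55 CPM in control KD A to C at 0 day and had 0 counts in D, where 3 counts, the limit that a count of 0 allows, would be 0.0926 CPM. That is at least 16.1-fold lower than the mean of A to C, for counting error only. In YBX3 KD at 0 day it was at 1.59, 1.502, 1.63 and 0.352 CPM in A to D. In differentiating myoblasts it was at 1.65 and 0.183 CPM in control KD C and D and at 0.882, 1.29 and 0.179 CPM in YBX3 KD B, C and D. D was the lowest library of every group. Its log2 fold change for YBX3 KD over both time points was 0.02 (SE 0.70).

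**Figure D5:**
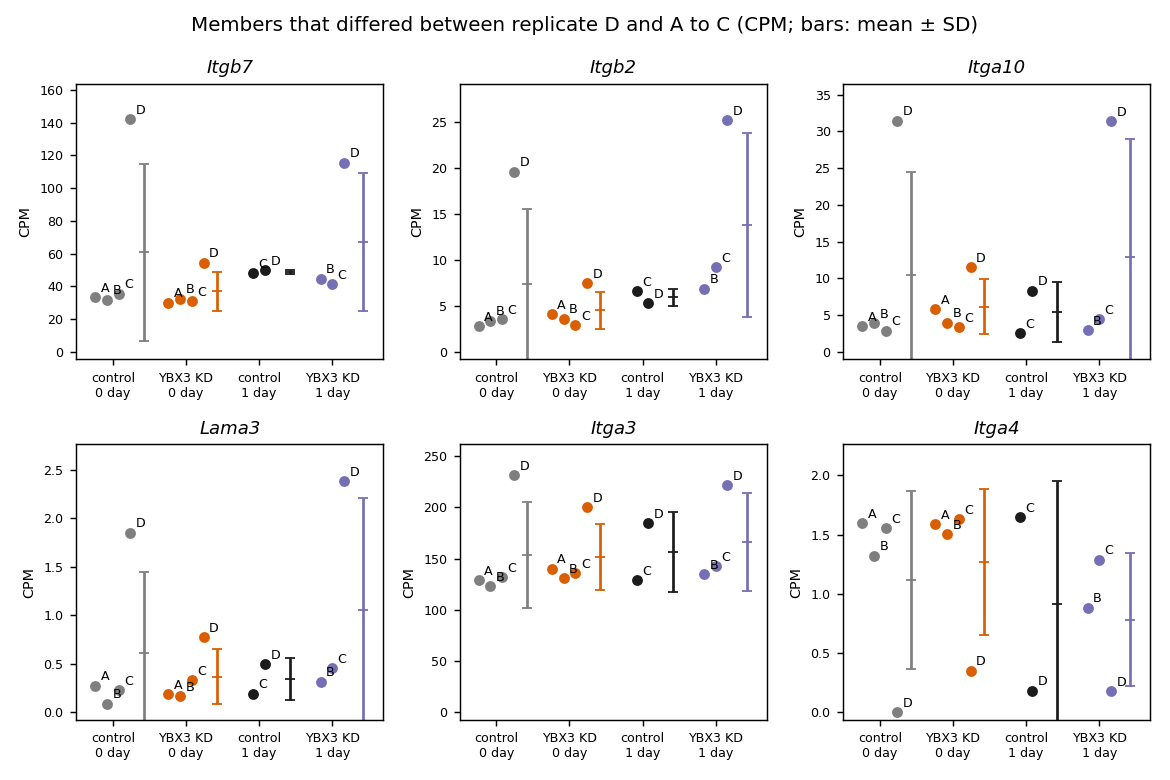
CPM by library of 6 members whose replicate D lay outside A to C at 0 day in both conditions, with letters beside the points and mean ± SD to the right of each group. D is the highest point of its group at 0 day in 5 panels and the lowest in the panel of Itga4.

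Other genes of integrin signaling were counted from lists set by function and chosen with earlier results of these data known. Of 42 integrin activators and adhesion plaque genes, 39 were tested, 0 passed an adjusted p of 0.05 over both time points, and their median log2 fold change was 0.02. Of 21 genes of other laminin receptors and the dystrophin-glycoprotein complex, 20 were tested, 0 passed, and the median was 0.05. Of 31 integrin ligands other than laminins and collagens, 23 were tested, and 3 passed, all higher, with a median of 0.24. For all 3 lists the comparison is with all tested genes, of which 2.34% passed and whose median was 0.0008. The ligands that passed were Thbs1, encoding the matrix protein thrombospondin 1, from 2461 ± 232 to 3901 ± 784 CPM (log2 fold change 0.67, SE 0.11, adjusted p = 0.00804), Adam9, encoding a membrane protease, from 228 ± 10.3 to 280.5 ± 19.2 CPM (0.30, SE 0.06, adjusted p = 0.0182), and Ccn4, encoding a matricellular protein, from 314 ± 25.6 to 391 ± 51.7 CPM (0.33, SE 0.07, adjusted p = 0.0225), with n = 6 and 7. Thbs1 was the only gene of these 3 lists to pass in a single time point, at 0 day (0.82, SE 0.12, adjusted p = 0.0165).

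Promoters of the members that moved together were inspected because Y-box proteins were first described as binders of the Y box, whose core is CCAAT on either strand (ATTGG on the other). The windows run from 250 bases before to 50 after the start site in RefSeq's GRCm38.p6 annotation, an earlier build than that of the counts. RefSeq entries were found for 23 of the 35 members, with 26 promoters. A CCAAT or ATTGG was found in 4 of the 26 (15.4%), those of Itga3, Itgax, Itgb8 and Lamb1, against 37.4% of all 32851 promoters. The GC box GGGCGG or CCGCCC was found in 12 of 26 (46.2%), against 35.7%. The motifs can share letters, but did not in these 26. Of the 4 members that rose, Itgb1, Itga5 and Itgav had an entry and Lamc3 had none. Those 3 promoters held a GC box and no CCAAT, and that of Itgb8 held the CCAAT motif at position -126 from the start site and no GC box. Of the other members called higher with the letter block, Lama2 held a GC box, Itga2b and both Lamb3 promoters held neither motif, and Itgb4 had no entry. The first 4 are printed with both motifs in capitals.
Itgb1 promoter, chr8:128685404-128685703, plus strand: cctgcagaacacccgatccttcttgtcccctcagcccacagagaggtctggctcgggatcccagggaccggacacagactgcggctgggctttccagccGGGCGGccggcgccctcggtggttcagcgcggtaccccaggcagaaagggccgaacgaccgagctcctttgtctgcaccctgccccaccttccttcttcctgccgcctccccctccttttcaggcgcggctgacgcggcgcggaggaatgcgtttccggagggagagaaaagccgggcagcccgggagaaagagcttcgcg
Itga5 promoter, chr15:103366742-103367041, minus strand: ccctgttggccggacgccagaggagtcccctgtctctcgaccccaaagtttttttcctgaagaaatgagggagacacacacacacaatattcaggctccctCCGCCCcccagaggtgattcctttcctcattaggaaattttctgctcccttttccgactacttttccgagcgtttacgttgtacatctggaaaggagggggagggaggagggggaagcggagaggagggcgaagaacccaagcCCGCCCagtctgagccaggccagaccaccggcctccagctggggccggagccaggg
Itgav promoter, chr2:83724147-83724446, plus strand: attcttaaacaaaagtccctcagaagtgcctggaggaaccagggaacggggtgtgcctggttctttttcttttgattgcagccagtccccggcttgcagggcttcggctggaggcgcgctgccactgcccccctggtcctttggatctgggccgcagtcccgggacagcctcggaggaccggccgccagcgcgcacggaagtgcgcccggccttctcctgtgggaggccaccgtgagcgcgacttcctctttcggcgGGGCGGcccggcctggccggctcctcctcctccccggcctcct
Itgb8 promoter, chr12:119238227-119238526, minus strand: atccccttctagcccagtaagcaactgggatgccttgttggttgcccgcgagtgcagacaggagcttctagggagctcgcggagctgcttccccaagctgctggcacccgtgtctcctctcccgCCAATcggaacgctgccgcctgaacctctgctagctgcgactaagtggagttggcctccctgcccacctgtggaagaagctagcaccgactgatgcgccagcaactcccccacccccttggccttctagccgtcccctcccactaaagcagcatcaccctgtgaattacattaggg
The letters alone do not show binding, and their part in the levels was not tested.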

How the data were processed

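Expression was quantified by the authors in Salmon against the Gencode M30 transcripts (GRCm39), which the paper describes as the canonical list. The deposited files hold estimated counts per gene, not normalized, with a column per library. The deposited values are whole numbers, and the step that made them whole is not given in the sources used here. All 13 libraries were fitted together in R 4.3.3 with edgeR 4.0.16 (filterByExpr on the 4 groups, TMM, estimateDisp, glmQLFit and glmQLFTest), with Benjamini-Hochberg adjustment over all 16848 tested genes. The comparison over both days fitted condition and day, and those within days, between days and of their difference fitted a coefficient per group. Calls used an absolute fold change above 1.3 with an adjusted p-value under 0.001, or an adjusted p-value under 0.05. The edgeR comparison over both days without a block was tested on simulated data, which held no difference between replicate letters. The other comparisons and the block were not tested in this way. Symbols, positions, exon lengths and 3' untranslated regions came from GENCODE vM39 (GRCm39), siRNA sequences from the study's supplement, and promoters from RefSeq.

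Replicate letters and title numbers disagree at 1 day. Residuals of log2 CPM correlated above 0.1 in all 16 pairs of libraries of the same letter in different groups (0.117 to 0.730), against 11 of 46 pairs of different letters, so the letter was used as a block where stated. Samples are labeled as biological replicates, and no 2 libraries of a group were duplicates (chi-square per degree of freedom of 18.0 or more in 16 pairs). The members and lists were chosen with earlier results of these data known. All 35 members were accounted for. Values in every library were set for members called at an adjusted p under 0.05, for the 8 with the highest CPM per kilobase, and for the 3 tested members with the smallest p in each direction of each comparison, and other genes were named where called at an adjusted p under 0.05. Alternatives were DESeq2 1.42.0, relative log expression factors, no filter, at least 10 counts in every library, letter or title number as a block, no day term, only the libraries compared, each library left out, replicate D left out, and other gene lengths. The limit given for a count of 0 covers counting error only.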

Additional observations from a re-analysis of the deposited data

Results flagged for a closer look

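In groups of 4 libraries, a value was marked where its gap to the nearest library exceeded Dixon's 95% critical share of the range of the group, which chance does in about 1 in 20 groups. Of 58 such groups, from 29 members in 2 conditions at 0 day, 13 were marked, each for replicate D. Within a condition all groups come from the same 4 libraries, so they are not independent. Over all tested genes, D was above A to C for 39.8% in control KD and 37.5% in YBX3 KD at 0 day. It was below for 38.3% and 33.6%. The share of all genes marked by this rule was not counted. In control KD at 0 day, D was high for Itga3 at 231.1 CPM (others 122.9 to 131.7), Itga10 at 31.42 CPM (2.862 to 3.894), Itgb2 at 19.57 CPM (2.806 to 3.508), Itgb7 at 142.1 CPM (31.83 to 35.41), Lama3 at 1.852 CPM (0.0911 to 0.2737), Lama5 at 324.5 CPM (152.5 to 161.8) and Lamb3 at 91.99 CPM (37.05 to 38.85). It was low for Itga6 at 46.76 CPM (57.41 to 59.42). In YBX3 KD at 0 day, D was high for Itga3 at 200 CPM (130.7 to 140.1), Itgb3 at 268.6 CPM (130.9 to 143.2), Itgb7 at 54.49 CPM (29.83 to 32.33) and Lamb3 at 137.2 CPM (62.79 to 67.69), and low for Itga4 at 0.3524 CPM (1.502 to 1.63).

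Itga6, a laminin-binding alpha chain, was higher in YBX3 KD in all 4 pairs of the same letter at 0 day and lower in both pairs at 1 day. The share of all genes with this pattern was not counted. The difference of the log2 fold changes was -0.23 (SE 0.26), and edgeR's test of that difference gave an adjusted p of 1.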

How the results depend on the processing

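At the thresholds of the study, 0 members were called over both time points, against 0.113% of all genes. The alternatives moved this to 1 with DESeq2 (Lamc3), against 1.12% of all genes. With DESeq2 and the letter as a replicate block it was 3 (Itga2b, Itgb8 and Lamb3), against 2.52%. At an adjusted p-value of 0.05 with no fold threshold it was 4, against 2.34%. At 0 day DESeq2 with the letter block gave 1 (Lamb3), against 1.49%. Every other alternative gave 0 in each comparison it was run for (no day term over both time points alone, only the libraries compared in 4 comparisons, all others in 6), including edgeR with the letter or the title number as a block, and all 13 fits that left out a library. At an adjusted p-value under 0.05, the number of members over both time points was 4 with relative log expression factors (2.43% of all genes) and with at least 10 counts in every library (2.9%), 3 without a day term (2.27%), 0 without a filter (0.594% of 30314 genes), 5 with DESeq2 (7%), 5 with the title number as a block (2.16%), 9 with the letter as a block (9.78%) and 11 with DESeq2 and the letter as a block (17.5%). Leaving out a library gave 1 to 5, and the number was 1, Lamc3 alone, without control KD B or C at 0 day, control KD C or D at 1 day, or YBX3 KD A or B at 0 day. It was 2 without control KD A and 5 without control KD D at 0 day. Lamc3 passed in all 13 of these fits (adjusted p 0.014 to 0.0397), Itga5 in 7 (0.0235 to 0.0681), Itgav in 5 (0.0208 to 0.0822) and Itgb1 in 3 (0.03 to 0.108). At 0 day, Lamc3 also passed an adjusted p of 0.05 with at least 10 counts in every library, against 0.659% of all genes. With DESeq2 and the letter block, 9 of 29 members passed at 0 day, 8 higher and 1 lower, against 7.91% of all genes. At 1 day 5 of 29 members passed with DESeq2 and the letter block, against 13.9%. Ratios between genes depend on length, and 6 of the 8 highest members remained among the highest 8 with the median coding transcript length and 7 with the canonical length, but Lamb2 in place of Itgb1 was highest with the former.

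Among the members named by rule for each comparison, signs of uncalled log2 fold changes turned 19 times, mostly without a library of replicate D. Of the others over both time points, Itga10 was positive in 11 of 23 fits, Itgb2 in 10, Lama5 in 8 and Itga3 in 17, and Itga4 in 15 and Lama3 in 16 of 22. Over both time points, leaving out a library moved Itgb7 between -0.54 and 0.27 (0.27 without control KD D at 0 day) and Lamb1 between -0.055 and 0.0106 (highest without control KD D at 1 day), and leaving out all of D moved Lamb1 to 0.0356. At 0 day the ranges were -0.96 to 0.13 for Itgb7 and -1.05 to 0.46 for Itgb2, the highest without control KD D, and Itgb2 was at 0.11 without D. At 1 day they were -0.32 to 0.0737 for Itga6 (highest without YBX3 KD D) and -0.13 to 0.0857 for Lamb1 (highest without control KD D), with 0.11 and 0.12 without D, and 0.0038 for Lamb1 with the title number as a replicate block. For the step between days in control KD they were -0.18 to 0.70 for Itgb3 and -0.40 to 0.89 for Lama4, the lowest without control KD D at 1 day, and -0.0944 and -0.44 without D. For the difference between days, Itgb3 ranged from -0.85 to 0.026 and Itgb7 was at -0.0395 without D. The cause was not tested.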
